A study of Drosophila melanogaster with 2 samples.

Results

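Histone variants are the histone proteins that cells make and deposit outside the wave of canonical histone synthesis that accompanies DNA replication. The genes described are His2Av, His3.3A, His3.3B, His4r and cid of Drosophila melanogaster, a set fixed by name, and all 5 were found in the Ensembl annotation among its 13945 protein-coding genes on the chromosome arms. Peak summits were collected at each of them when they lay inside the gene or within 500 bp of one of its annotated transcription start sites (TSSs). The question was where, and how strongly, the CG3032 protein was found at these genes.

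The samples were 2 biological replicates, labelled replicate 2 and replicate 3, of whole prepupae aged 24 hours, with the sexes pooled. Both came from 1 transgenic fly line that stably carries CG3032 with green fluorescent protein (GFP) at its C-terminus, and the chromatin was precipitated with an antibody to GFP and sequenced (ChIP-seq). There was 1 group and no untreated or untagged sample was analysed here, so no contrast between conditions and no test could be made. A peak from whole animals cannot be assigned to a cell type, and binding in few cells and weak binding in many cannot be told apart.

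His2Av encodes H2A.V, the only H2A variant of the fly, which does the work that H2A.Z and H2A.X share in mammals. It is exchanged into nucleosomes near gene starts and is phosphorylated at DNA breaks. His3.3A and His3.3B encode H3.3, which replaces H3 in transcribed chromatin throughout the cell cycle, His4r encodes histone H4 from a polyadenylated transcript, and cid encodes the centromeric H3 variant CENP-A. The annotated coding sequences of His3.3A and His3.3B were each 408 bases long and encoded the same 136 residues, although 57 bases and 53 codons differed (86.03% identity). His4r likewise encoded the same 103 residues as the repeat gene His4:CG31611, with 50 of 309 bases different (83.8% identity).

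Of the 5 genes, 3 had a summit in the IDR list (IDR is the irreproducible discovery rate, which compares peak ranks between replicates). These were His2Av, His3.3B and His4r, and all 4 of their IDR summits were promoter summits, within 500 bp of a TSS. The IDR list held exactly the 8170 strongest peaks of the longer list called on both replicates, the whole-series list. Membership was thus equal to a cutoff on that signal, and a listed peak need not rank alike in each replicate. Over all protein-coding genes the share with an IDR promoter summit was 27.0%, and the share with an IDR summit in the gene or within 500 bp of a TSS was 32.0%. His3.3A and cid had promoter summits only in the longer, less strict lists. With so few genes, the count is given as a description beside these shares.

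The DNA at the stronger summits and between paired gene starts is given here. Which of these bases the protein contacted, if any, was not tested. The sequences are from the RefSeq copy of the dm6 assembly, run 5′ to 3′ along the histone gene, hold no annotated exon unless stated, and carry in capitals any match to a searched motif. Motifs were searched on both strands. The first line is the part of the His2Av summit window inside an intron of its neighbour ball (chr3R:26866656-26866775, plus strand), with the summit at base 71. The second is the gap between the starts of ball and His2Av (chr3R:26866808-26866928, plus strand).
His2Av summit: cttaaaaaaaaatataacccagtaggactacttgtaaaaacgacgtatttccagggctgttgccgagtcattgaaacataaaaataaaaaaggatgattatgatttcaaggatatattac
ball to His2Av gap: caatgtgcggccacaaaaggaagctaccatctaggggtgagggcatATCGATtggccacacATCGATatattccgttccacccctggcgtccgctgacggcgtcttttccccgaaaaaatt
The capitals in the gap are 2 copies of ATCGAT, the core of the DRE motif of the promoter factors Dref and BEAF-32. The full DRE word, TATCGATA, which contains that core, did not occur in it. The summit stretch was 30.8% G+C and the gap 52.9%.

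The sequences at His3.3B are both intronic (chrX:9155215-9155403 and chrX:9155934-9156134, minus strand), with the summit at base 89 and base 101. The His4r line is the whole gap between the starts of its neighbour put and of His4r (chr3R:14625704-14625754, plus strand), with the summit at base 12. The His3.3A lines are the gap between the starts of CG14036 and His3.3A (chr2L:5055017-5055057, plus strand), which held no IDR or whole-series summit, and a short site at the downstream His3.3A start (chr2L:5055122-5055150, plus strand, inside the 5′ UTR of the longer transcript). The interval of the strongest whole-series peak of His3.3A (2L:5054907 to 5055302) covered both.
His3.3B strongest summit: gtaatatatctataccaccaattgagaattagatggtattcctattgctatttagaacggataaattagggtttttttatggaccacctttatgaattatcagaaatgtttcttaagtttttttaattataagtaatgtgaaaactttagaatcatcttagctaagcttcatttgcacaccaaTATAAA
His3.3B upstream summit: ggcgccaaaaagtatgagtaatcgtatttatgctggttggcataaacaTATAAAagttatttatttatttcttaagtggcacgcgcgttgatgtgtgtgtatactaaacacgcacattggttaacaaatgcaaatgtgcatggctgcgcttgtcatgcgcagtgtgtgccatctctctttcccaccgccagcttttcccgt
put to His4r gap: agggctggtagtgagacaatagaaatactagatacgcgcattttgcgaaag
CG14036 to His3.3A gap: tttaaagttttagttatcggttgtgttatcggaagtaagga
His3.3A start site: atgaatatagGGTCACACTgagcagacgc
The capitals mark TATAAA in the His3.3B sequences and Motif 1, GGTCACACT, the word bound by M1BP, at the His3.3A start. The summit windows ranged widely in base composition. The 201 bp centred on the strongest His3.3B summit were 27.4% G+C and those on the His4r summit 46.3%, while the middle of the IDR list (lower to upper quartile) ran from 29.4% to 38.8%.

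His3.3B had the strongest peak of the set, and it lay inside the gene, between alternative starts. The gene (FBgn0004828) occupies X:9152523 to 9156669, is read from the minus strand and has 3 annotated TSSs, at 9156669, 9155613 and 9155012. The IDR summit at X:9155315 was 298 bp downstream of the middle start and 303 bp upstream of the last one, in an intron of the longer transcripts. Its signal was 571 in the IDR and whole-series lists, where it ranked 1998. It was 156 in replicate 2 (rank 2568) and 416 in replicate 3 (rank 1801), each in a list of 30000. Both replicates placed the summit between the same starts, at X:9155291 and X:9155321, which are 24 bp and 6 bp from the IDR summit.

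A weaker IDR summit of His3.3B lay at X:9156034, between the most upstream start and the middle one, 421 bp upstream of the latter and also intronic. Its signal was 187 (rank 6674), with 46.2 in replicate 2 (rank 9118) and 140.3 in replicate 3 (rank 6142). The nearest replicate summits lay 1 bp and 41 bp from it. Between the same starts, replicate 2 also listed a summit at X:9156298 (signal 20.0, rank 25247) and replicate 3 one at X:9156198 (86.3, rank 9879). The whole-series list held a further 3 summits in the gene, of which 1 lay 89 bp downstream of the middle start (signal 37.6) and 2 in the 3′ UTR (61.7 and 75.4). Replicate 3 had 3 summits in the 3′ UTR (28.3, 46.8 and 50.6), with deposited −log10 q-values of 1.18, 3.47 and 4.01. Replicate 2 had 1 (19.96), at rank 25412 of 30000 and with a −log10 q-value of only 0.15. The 3′ end thus had weak summits in replicate 3 and an entry of little support in replicate 2. His3.3B was the only one of the 5 genes with no protein-coding start on the other strand within 500 bp upstream, and no other gene's TSS lay within 500 bp of its summits.

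**Figure D1:**
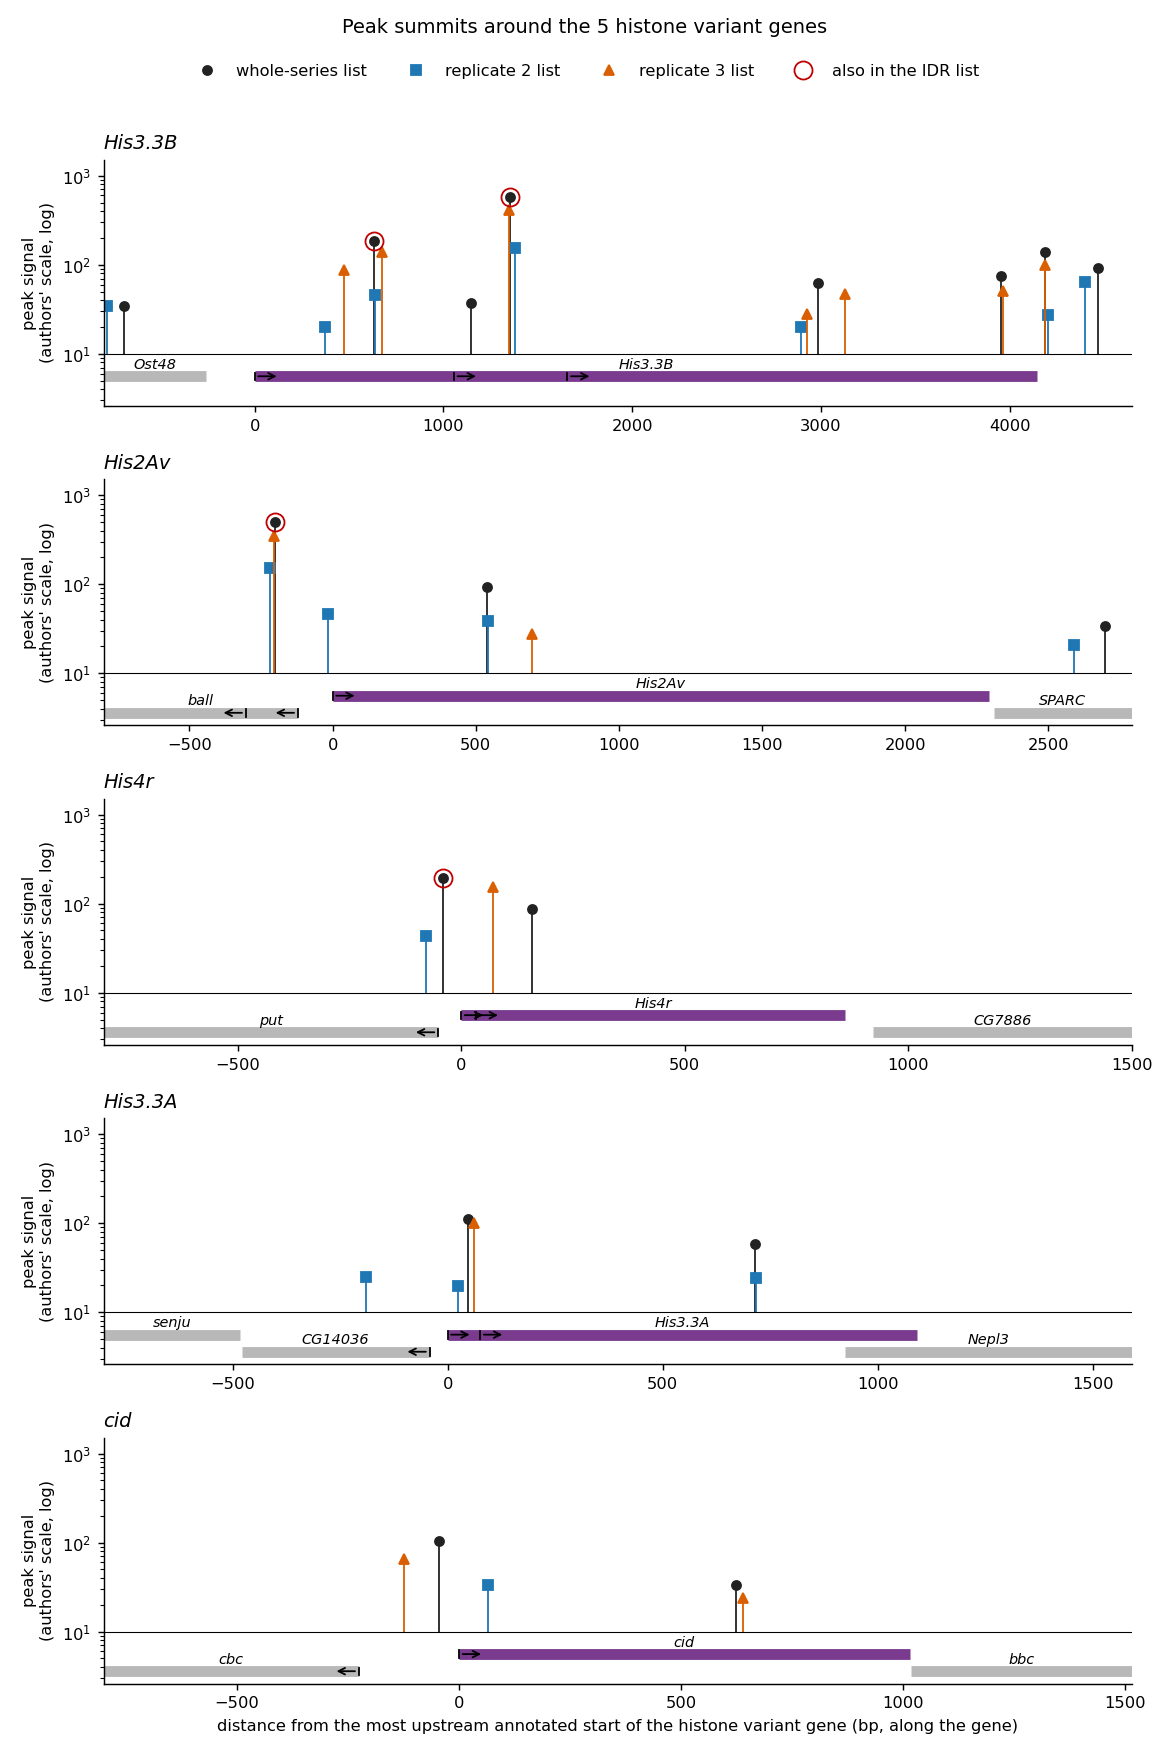
Peak summits around each gene, as distance in bp from the most upstream annotated start along the gene (x) against peak signal on a log scale (y, the authors' scale, compared only within a list). Bars under each panel are genes, with the histone gene in purple and arrows at annotated starts, and red circles mark whole-series summits that are also in the IDR list. The IDR peaks of His3.3B lie among its own starts, while the promoter peaks of the other 4 genes lie close to a start of a neighbour on the other strand.

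His2Av had a peak almost as strong, with the summit upstream of the His2Av start and inside the neighbouring gene. The gene (FBgn0001197) lies on the plus strand of 3R from 26866929 to 26869220 with a single TSS. Its summit at 3R:26866726 was 203 bp upstream of this TSS, with a signal of 496 and a rank of 2355. Replicate 2 placed it at 3R:26866712 (signal 150.3, rank 2675) and replicate 3 at 3R:26866724 (signal 347, rank 2269), which are 14 bp and 2 bp away. These were the closest matches between replicates for any strongest summit of the set.

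The same summit was nearer to ball, which encodes a histone kinase and is transcribed away from His2Av. It lay between the annotated starts of ball, 81 bp downstream of the one at 26866807 and 101 bp upstream of the one at 26866625, in an intron. The replicate 2 summit was nearer to the latter start, at 87 bp, and the replicate 3 summit to the former, at 83 bp. The facing starts of ball and His2Av were 122 bp apart, and the gap between them, with its DRE cores, held no IDR or whole-series summit. The interval of the IDR peak (3R:26866564 to 26866929) nevertheless covered the whole gap and the His2Av start. Only replicate 2 had a summit in the gap, 17 bp upstream of His2Av (signal 46.4, rank 9061) and 200 bp from its stronger summit. The closest spacing of any pair of summits in a list was 199 bp, so this separation is about the smallest that the lists contain. Inside His2Av, the whole-series list and replicate 2 had a summit in coding sequence (signals 92.0 and 38.3), and replicate 3 had one in an intron (27.9).

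His4r had a weaker peak at the start it shares with put, which encodes a type II receptor of the Dpp and activin pathways. The gene (FBgn0013981) lies on the plus strand of 3R from 14625755 to 14626614, and its starts at 14625755 and 14625788 face the put start at 14625703. The IDR summit at 3R:14625715 was 40 bp upstream of His4r and 12 bp upstream of put, in the gap of 51 bases shown above. Its signal was 193 and its rank 6479. In replicate 2 the summit was at 3R:14625676, in the 5′ UTR of put (signal 43.6, rank 9631), and in replicate 3 at 3R:14625827, inside His4r (signal 153, rank 5611). These lay 39 bp and 112 bp from the IDR summit on opposite sides, so the replicates placed the summit on different genes of the pair. The peak intervals of both replicates overlapped and covered the starts of both genes. The whole-series list also had a second summit 126 bp downstream of the second His4r start (signal 87.4). A stronger IDR summit lay farther off, 1532 bp upstream of His4r inside put (3R:14624223, signal 879, rank 1077).

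His3.3A, which encodes the same protein as His3.3B, had no IDR summit. The gene (FBgn0014857) lies on the plus strand of 2L from 5055058 to 5056149, with starts at 5055058 and 5055134, and its upstream start is 42 bp from that of CG14036 on the other strand. The strongest summit in the whole-series list lay between the His3.3A starts at 2L:5055105, 29 bp upstream of the downstream one, with a signal of 112 and a rank of 10651. Replicate 3 had a summit at 2L:5055120 (signal 102, rank 8491). In replicate 2 the strongest promoter summit was in the coding sequence of CG14036 at 2L:5054869 (signal 24.8, rank 18927), and another lay at 2L:5055082 (signal 19.4, rank 26303). A peak between the starts was thus weak in replicate 2 and of middling rank in replicate 3. The whole-series list and replicate 2 also had a summit in the 3′ UTR (57.7 and 24.3). The nearest IDR summits were 2333 bp and 2551 bp upstream, at the paired starts of eIF3h and senju (signals 190.5 and 465).

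The gene cid was the weakest of the set in the whole-series list. It (FBgn0040477) lies on the plus strand of 2R from 13485617 to 13486631 with a single TSS, 226 bp from the start of cbc, a gene for an RNA-processing kinase transcribed the other way. The whole-series summit at 2R:13485573 was 44 bp upstream of cid, with a signal of 103 and a rank of 11373. Replicate 2 had its summit 65 bp downstream of the TSS (signal 33.2, rank 12918) and replicate 3 had it 123 bp upstream (signal 66.2, rank 12454). The ranks were close in the replicates, but the summits lay 188 bp apart on either side of the start. A summit in the cid coding sequence was listed in the whole-series list (33.1) and in replicate 3 (23.8). The nearest IDR summit was 2385 bp upstream, 3 bp from the start of arr (signal 177).

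The whole-series list held a promoter summit for all 5 genes, as did each replicate list. This is a loose criterion, met by 49.2% of protein-coding genes in the whole-series list, 48.6% in replicate 2 and 50.3% in replicate 3, and by 52.5% in the whole-series list when summits anywhere in the gene are counted. Some of these entries had low deposited −log10 q-values. In replicate 2 they were 0.37 and 0.13 at the His3.3A promoter summits and 0.97 at that of cid. In replicate 3 the promoter summits of both genes had 4.49. In all, 13 whole-series summits lay at the 5 genes, of which 4 were in the IDR list and 9 were not. The IDR list was made of the 8170 whole-series peaks with the highest signal, down to 150.5. The strongest summits of His3.3A and cid reached 74.4% and 68.6% of that lowest signal, and the His4r summit 128% of it.

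The order of the genes by their strongest promoter peak was nearly the same in the replicates. His3.3B was first, then His2Av, then His4r in both and in the whole-series list, which was made from both. His3.3A came before cid in replicate 3 and the whole-series list, and after it in replicate 2. The strongest of the 5 signals was 6.28 times the weakest in replicate 2 and 6.29 times in replicate 3. His3.3B and His2Av were close neighbours in this order, with 156 and 150.3 in replicate 2 and 416 and 347 in replicate 3. With 2 replicates their difference cannot be set against a spread.

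**Figure D2:**
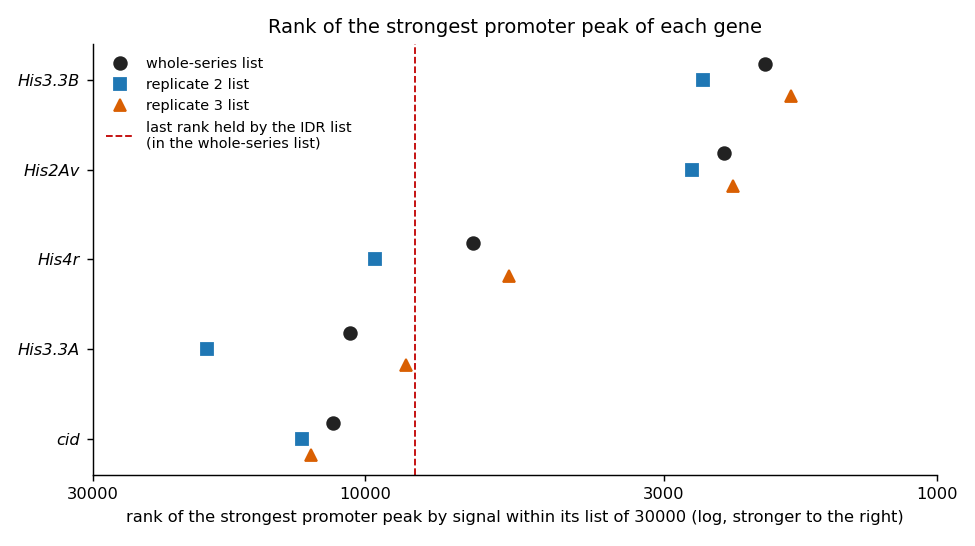
Rank of the strongest promoter peak of each gene by signal (x, log scale, stronger to the right) in the whole-series list and the replicate lists of 30000 peaks. The dashed line is the rank of the last whole-series peak held by the IDR list. His3.3B and His2Av sit at ranks 1801 to 2675 in every list, and His3.3A has the widest gap between replicates, at 18927 in replicate 2 and 8491 in replicate 3.

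Even the strongest of these peaks stood in the upper middle of the range of promoter peaks, far from its top. Among the 3763 genes with an IDR promoter summit, 1077 had a stronger one than His3.3B, 1232 a stronger one than His2Av and 3087 a stronger one than His4r. His3.3B thus exceeded 71.4% of those genes, His2Av 67.2% and His4r 17.9%, against a median signal of 336.

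**Figure D3:**
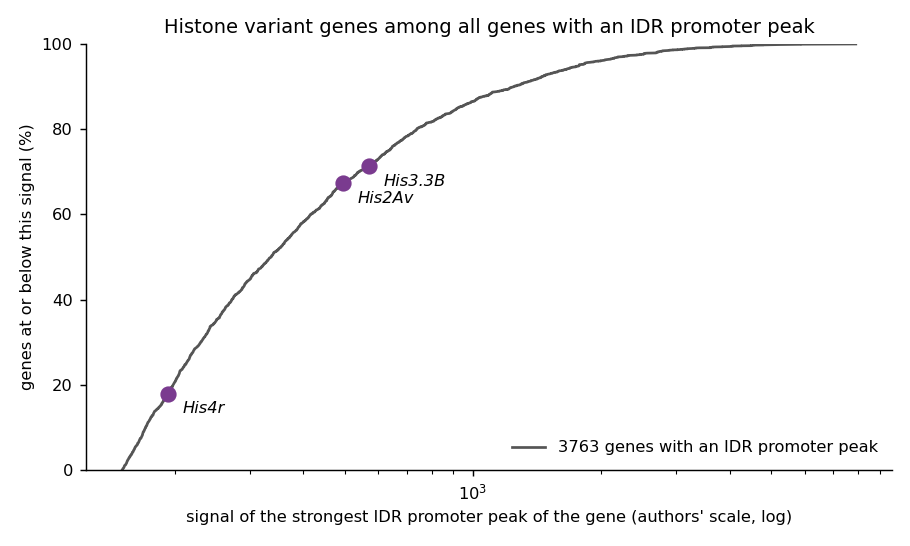
Share of the 3763 genes with an IDR promoter peak (y, %) whose strongest such peak is at or below a given signal (x, log scale, the authors' scale), with the 3 histone variant genes as points. His4r lies near the low end and the other 2 above the median of 336.

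Of the 4 IDR summits at these genes, 3 had a summit within 100 bp in both replicate lists, the exception being His4r in replicate 3. Over the whole IDR list the share was 91.0%. The IDR list was derived from the replicate lists, so this is no separate measure of agreement. The strongest promoter summits of the replicates lay 12 bp apart at His2Av and 30 bp apart at His3.3B. They lay 151 bp apart at His4r, 188 bp at cid and 251 bp at His3.3A.

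A feature that the choice of genes did not use was their position beside other genes. Of the 5 genes, 4 (His2Av, His3.3A, His4r and cid) had a protein-coding start on the opposite strand at most 500 bp upstream, with gaps of 122, 42, 52 and 226 bp. The share over all protein-coding genes was 27.4%. A summit in such a gap counts for both genes. When each IDR summit was given only to the protein-coding gene with the nearest TSS, the His2Av summit went to ball and the His4r summit to put, and His3.3B alone kept its peaks, so that 1 of 5 genes was marked against 20.2% of all genes. Such sharing was common, since 56.2% of the genes with an IDR promoter summit had their strongest one within 500 bp of another protein-coding gene's start. With a TSS window of 200 bp, only the His4r summit counted as a promoter summit, so that 1 of 5 genes had one against 19.5% of all protein-coding genes.

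No motif of the 6 searched was common to the genes. Within 100 bp of their strongest summits, Motif 1 occurred at His3.3A and at cid, the 2 genes outside the IDR list, and in neither IDR summit window of His3.3B nor in those of His2Av and His4r. In the cid window it began 51 bp to the right of the whole-series summit, 7 bp past the cid TSS, and in the His3.3A window 27 bp to the right of the summit. Motif 1 was present at 1.41% of all IDR summits and in 6.05% of promoters, taken from 250 bp before to 50 bp after the most upstream start of each protein-coding gene. TATAAA occurred in the windows of both His3.3B summits and of cid, and in 38.5% of all IDR windows. The His3.3A and cid windows are centred on whole-series summits outside the IDR list. Shares over such summits were not computed, so for these genes the IDR share is not a like comparison.

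In those promoter stretches, ATCGAT occurred 2 times each at His2Av and cid and at 23.3% of all genes, while TATCGATA occurred at none of the 5 and at 9.37% of all genes (8.80% and 2.80% of IDR windows). CAGCTG occurred at His3.3A, also within its summit window, and at cid, against 17.7% of promoters and 6.06% of IDR windows. GAGAGAG, the GAGA factor word, was found at none of the 5 genes in either window (5.87% of promoters and 3.43% of IDR windows). TATAAA occurred in the promoter stretches of His3.3B and cid, against 45.9% of all. The His4r stretches matched none of the 6 words.

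The canonical histones could not be set beside the variants. Their 111 genes lie in a tandem repeat on 2L (21416953 to 21541681) that held 0 summits in each of the 4 lists. The variant genes are single copies outside it. Whether reads can be placed in the repeat was not tested.

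Histones reach chromatin through chaperones and exchange complexes, some of them specific to a variant. Beside the variants, 36 related genes were examined, of which 25 act in H3.3 deposition, H2A.V exchange or at the centromere, 10 encode general histone chaperones and 1 encodes a linker histone. Of these, 16 (44.4%) had an IDR promoter summit, against the 27.0% of all protein-coding genes, and 20 had none. At 14 of the 16 the summit lay within 500 bp of a start of another annotated gene, as it did for 60.03% of all protein-coding genes with an IDR promoter summit. With each summit given to the nearest gene the count was 11 of 36, beside 20.2% of all protein-coding genes under that rule. The signals of the 16 ranged from 154 to 1918 with a median of 329.

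Against 27.0% of all protein-coding genes, 3 of 5 genes for H3.3 deposition had an IDR promoter summit. These were Daxx (2L:6480745, signal 637) and XNP, the fly counterpart of ATRX (3R:25482611, signal 412), and yem (3R:29123173, signal 348), a partner of the chaperone Hira. Hira itself and the H3–H4 chaperone gene asf1 had weaker promoter summits in the whole-series list (59.8 and 89.3). The XNP summit lay inside the gene, 33 bp upstream of an internal start, with starts of other genes also within 500 bp. The summits of Daxx and yem, at 184 and 294 bp upstream, were nearer to the starts of other genes. With each summit given to the nearest gene, 1 of the 5 genes was counted, beside 20.2% of all protein-coding genes.

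Genes of H2A.V exchange, which act in the DOM and Tip60 complexes and related remodelers, had an IDR promoter summit in 9 of 18 cases. The share over all protein-coding genes was 27.0%. With each summit given to the nearest gene the count was 7 of 18, beside 20.2% of all protein-coding genes. The strongest was pont, encoding a AAA+ ATPase shared by several remodelers, at 3R:10261991 (signal 1918, rank 204), 132 bp upstream of its start. It was followed by the remodeler gene Ino80 (3R:19403248, signal 1228) and by Gas41 (2L:6950319, signal 1058), which encodes a YEATS domain protein and whose summit was nearer to the start of the cohesin gene SA1. These 3, and Daxx, exceeded every histone variant gene. The partner of pont, rept, had a signal of 388, and dom, the gene of the ATPase that exchanges H2A.V, had 187. Arp6 had no IDR promoter summit (97.7 in the whole-series list). The summit of the acetyltransferase gene Tip60, at 150.1, fell just short of the IDR list.

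General histone chaperone genes had an IDR promoter summit in 4 of 10 cases, against 27.0% of all protein-coding genes. With each summit given to the nearest gene the count was 3 of 10, against 20.2%. Among the 4 were Spt6 (X:6267565, signal 401) and the FACT subunit gene dre4 (310.0). The gene of the other FACT subunit, Ssrp, had no promoter summit in the IDR or whole-series list, though replicate 2 listed one (signal 68.8, rank 6260). Nlp and Nph shared 1 summit (157). Neither centromere gene had one in the IDR list. Cenp-C had a whole-series promoter summit of 143.6. The gene cal1, whose product loads CENP-A, had none in that list, though replicate 2 listed one (signal 52.0, rank 8200). Thus cid and both of its partner genes lay outside the IDR list, as did most genes. Only 27.0% of all protein-coding genes had an IDR promoter summit. BigH1, the gene of the germline and early embryonic linker histone, had no promoter summit in the IDR or whole-series list. Replicate 3 listed one for it (signal 52.6, rank 14908).

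**Figure D4:**
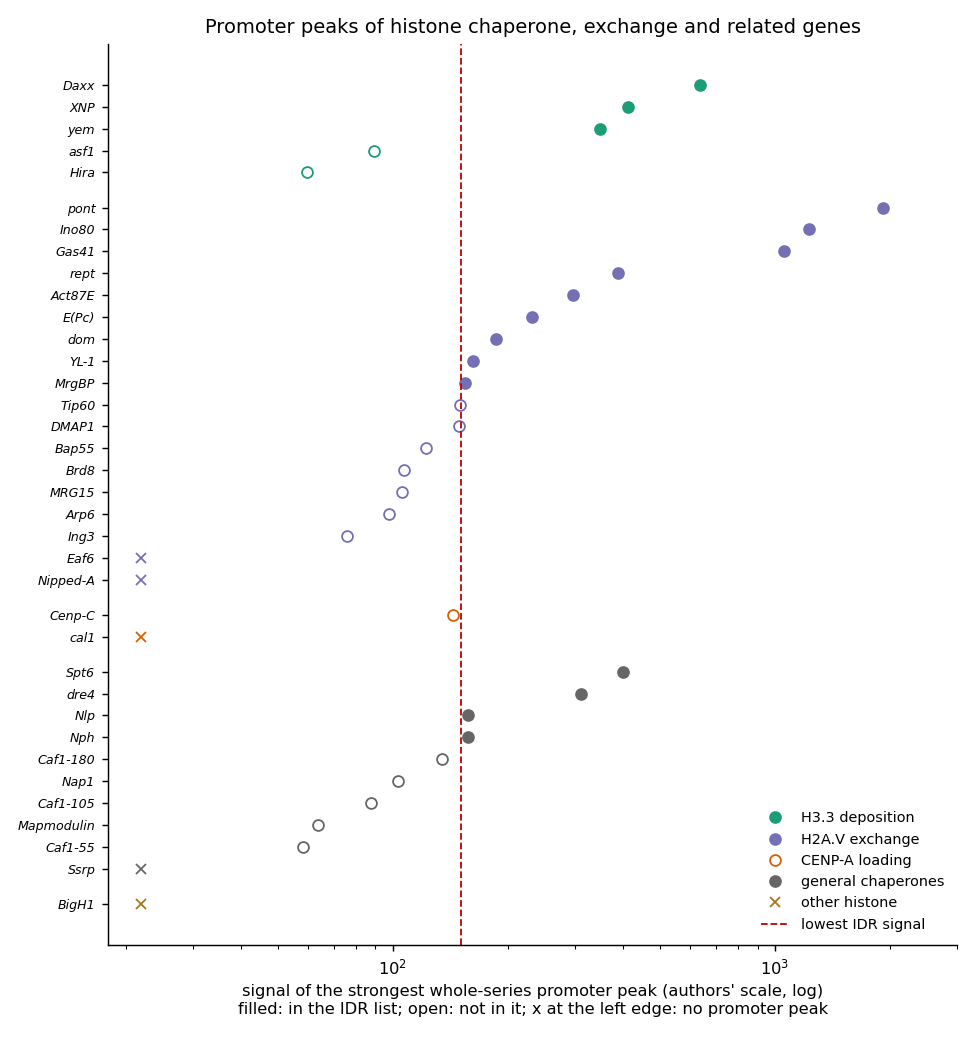
Signal of the strongest whole-series promoter peak (x, log scale, the authors' scale) for the 36 histone chaperone, exchange, centromere and linker histone genes, by group (colour). Filled points are in the IDR list and open points are not. Crosses at the left edge are genes with no promoter peak in the whole-series list, some of which had one in a replicate list. The dashed line is the lowest IDR signal of 150.5. In the H2A.V exchange group 9 of 18 genes lie beyond the line, led by pont at 1918, and no centromere gene does. Over all protein-coding genes, 27.0% had an IDR promoter summit.

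The genes most like His2Av and His3.3B in the ranks of their promoter peaks were found by the sum of the absolute rank differences over the 2 replicates, among genes with a different IDR promoter summit. For His2Av these were svr, a carboxypeptidase gene (sum 20), and Gp93, an endoplasmic reticulum chaperone gene (sum 107), with IDR signals of 495 and 497. For His3.3B they were the bZIP transcription factor genes Atf3 (sum 26) and cnc (sum 59), with signals of 566 and 583. The svr summit lay 196 bp upstream of its start and the Gp93 summit 157 bp upstream. His4r was not compared in this way because its replicate 3 summit was more than 100 bp away.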

How the data were processed

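Peak lists in narrowPeak format on dm6 were deposited: 1 per replicate, 1 whole-series list called on both replicates and an IDR list derived from the other 3, each called with a control alignment, per the file headers in the accompanying texts. Which aligner and peak caller made them, with what settings and IDR threshold, is not given in the sources used here. Peak signal is on the authors' scale, which is undefined, and the −log10 q-value was deposited by the authors too. It was at its ceiling in all 8170 IDR peaks and was not used to rank. In the lists of 30000 it fell as low as 0.13 at the variant genes, so a place in those lists alone is weak support. The lists hold no read counts, so depth is unknown and no interval is given.

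Summits (start plus offset, 1-based) were joined to the Ensembl BDGP6.54 annotation, release 115, with Python 3.11.15, pandas 2.3.3 and numpy 2.4.6. Assignment of summits was tested on simulated data. Sequences came from RefSeq release 6. The replicates were listed side by side. With 1 group and 2 replicates no test was run.

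The genes and lists were chosen with earlier results of these data known. Of the 36 chaperone, exchange and related genes, 34 matched by symbol and 2 (DLP as Daxx, Cal1 as cal1) by synonym. The genes named are the 5 variants, genes with a start within 500 bp of their summits, and the 2 genes nearest in replicate ranks. Of the 36, the 6 with the strongest IDR promoter summit and the alphabetically first 2 without one are named too. Others of the 36, and the genes at the nearest IDR summits, were named after their values were seen. Alternatives covered the peak list, each replicate's own strongest 8170 peaks, the TSS window, the overlap rule, 1 gene per summit and the matching distance.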

Additional observations from a re-analysis of the deposited data

How the results depend on the processing

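Of the 5 genes, 3 had an IDR promoter summit in the main setting. With the whole-series list the count was 5 (49.2% of all protein-coding genes), with each summit given to the nearest gene 1 (20.2%), and with a TSS window of 200 bp 1 (19.5%). A replicate was left out by using the other one's 8170 strongest peaks. This gave 2 without replicate 3 (27.7%), when His4r was not counted, and 3 without replicate 2 (26.6%). Counting summits anywhere in the gene as well, the main count was 3 (32.0%), with 5 in the whole-series list (52.5%) and 1 with the nearest gene (24.4%). That count was 2 without replicate 3 (33.3%) and 3 without replicate 2 (31.6%). Of the 36 chaperone, exchange and related genes, 16 were counted in the main setting (27.0% of all protein-coding genes), 31 in the whole-series list (49.2%), 9 in the stronger 4085 IDR peaks (14.8%) and 15 to 19 without a replicate (26.6% and 27.7%). The summits matched in both replicates numbered 3 of 4 (91.0% of all IDR summits). They numbered 3 within 50 bp (75.2%), 4 within 200 bp (95.4%) and 2 among each replicate's strongest 8170 peaks (72.1%). The remaining alternatives moved each count by no more than 1.5 times. No paired analysis was possible because there was 1 group. Read depth is unknown, and 5 genes are too few to set a share apart from that of all genes.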
